A study of Mus musculus with 12 samples.

Results

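Male germ cells of the mouse at birth (postnatal day 0, P0) were compared with those of E13.5, a mid-gestation stage named by its embryonic day and the earliest of the series, to describe which transcripts were lost and which were gained over fetal life. A gene entered the comparison when its deposited value was at least 10 in at least 3 of the 6 libraries of these stages, which 21017 of the 55487 genes in the table met. The 6 libraries, 3 per stage, are part of a series of 12, whose other libraries come from E16.5 and P3. In both groups the cells came from testes of Mvh-Venus transgenic mice, whose germ cells fluoresce. The titles and source names call all these mice WT, whereas the genotype tag of both groups reads Morc1 (+/-), so the same tag stands on both sides of the comparison; E16.5 and P3 carry the tag Morc1 (-/-). Age is the only labelled difference. The labels do not give the number of animals behind a library, nor the isolation step. They do not say that the 3 libraries of a stage came from separate animals, so the p-values measure the spread between libraries only. That spread was taken within the stages over all 12 libraries, including those of E16.5 and P3 with their other tag. In such bulk samples, fewer cells of a type and less RNA per cell cannot be told apart.

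Germ cells that have entered the fetal testis, called gonocytes, still express many genes of the pluripotent state when they arrive. Over the following days they stop dividing, take on the male germ cell fate and rebuild the DNA methylation of their genome, guided in part by piRNAs, small RNAs bound to PIWI proteins that direct the silencing of transposons. After birth they divide again and give rise to spermatogonia, which include the stem cells of sperm production.

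The files hold normalized counts, in which the reads of each library have been divided by its size factor. Reads recovered from them numbered 48567599 to 51533747 in the E13.5 libraries and 43592337 to 47744848 in the P0 libraries. The size factors were 0.919 to 0.951 at E13.5 and 1.84 to 2.07 at P0, so a normalized count at P0 stands for about 2 reads and one at E13.5 for about 1 read. Summed normalized counts were therefore 53663696 ± 777218 at E13.5 and 23866185 ± 923829 at P0 (SD, n = 3). Scalings that treat the library totals differently move every fold change by nearly the same amount: relative to the file, the median log2 fold change over all genes shifted by 0.20 with TMM factors, 0.47 with median-of-ratios factors and 1.16 with equal library totals. The poscounts formula of DESeq2 moved it by -0.02. Decreases below are therefore given with the number that kept their call under 5 scalings, namely that of the file and these 4. Since none of the 4 lowers the fold changes by more than this, the number of scalings says little about increases and is not given for them.

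The labels were checked first on Morc1, a gene of male germ cells needed for transposon silencing, and on germ cell markers. Morc1 (ENSMUSG00000022652, chromosome 16 from 48431237 to 48630900 on GRCm38) stood at 1621, 1830.3 and 1640.5 normalized counts in E13.5 libraries 1, 3 and 4 and at 7708, 7501 and 7279.9 in P0 libraries 1, 3 and 4. It was thus present in every library, and the stages did not overlap; the log2 fold change was 2.14 (SE 0.0729, adjusted p 4.98e-14). The germ cell RNA helicase Ddx4, which is the gene Mvh, stood at 62737, 57634 and 56412 at E13.5 and at 24320.1, 23070.2 and 22150.5 at P0. Dazl, a germ cell RNA-binding protein, stood at 139041 ± 3787 and 59234 ± 2704 (SD, n = 3). Both were abundant in all 6 libraries. With equal library totals the log2 fold change of Dazl was -0.06 (adjusted p 0.366), so no direction is given for it.

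Of the 21017 genes tested, 18399 (87.5%) differed between the stages (limma on log2(normalized count + 1), Benjamini-Hochberg adjusted p under 0.05). At P0, 9434 genes (44.9%) were higher and 8965 (42.7%) were lower. These fold changes are on the log2(normalized count + 1) scale, which understates the change of low genes; ratios given below as n-fold are of mean normalized counts. The 3 and 3 libraries did not overlap for 18827 genes (89.6%). A change of at least 2-fold was found for 14886 genes (70.8%), 8328 (39.6%) higher and 6558 (31.2%) lower. With the filter on low values, gains were far more often large: 5201 genes (24.7%) rose and 668 (3.18%) fell at least 8-fold. No more than 3 reads in each E13.5 library were found for 2636 genes, and in each P0 library for 21. These genes could pass the filter only through the other stage, so the 8-fold counts describe and do not support. When the filter was a mean of 100 or more, the balance of 2-fold changes turned, with 3093 genes higher and 5603 lower. Under all 5 scalings, 9389 genes (44.7%) were called higher and 4564 (21.7%) lower, a difference that follows from the upward shifts given above. The share of called genes that were higher was 51.3% with the factors of the file, 54.5% with TMM factors, 59.7% with median-of-ratios factors and 74.8% with equal library totals.

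**Figure D1:**
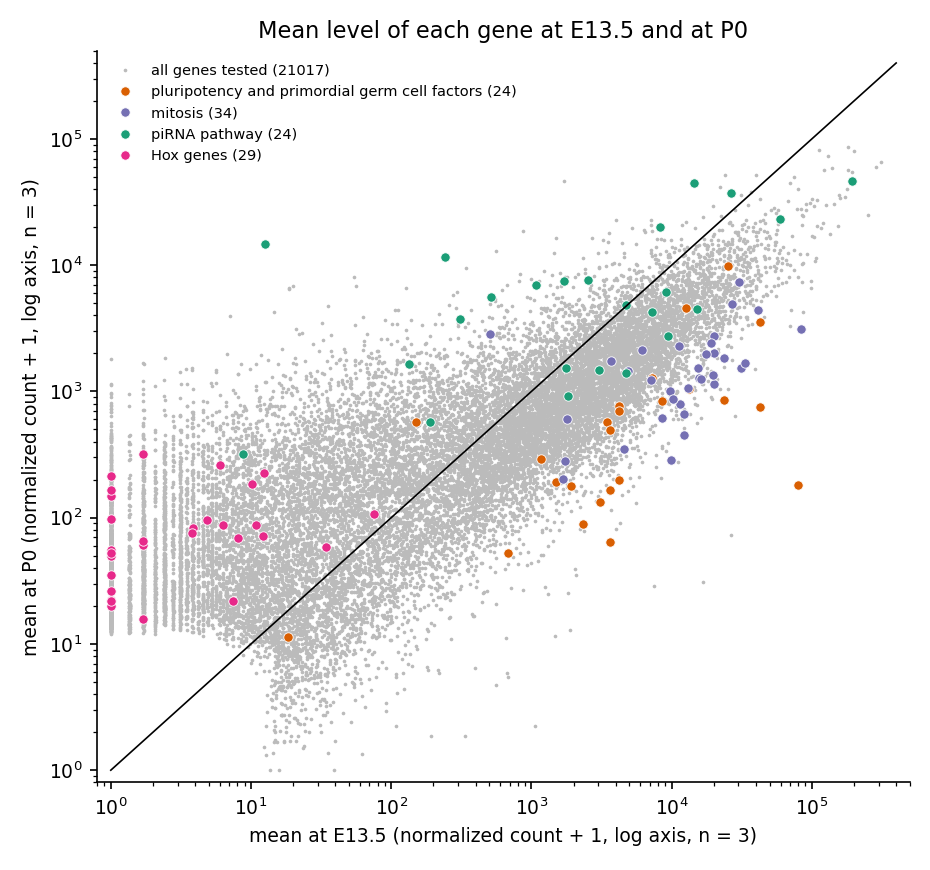
Mean normalized count of each tested gene at E13.5 (x axis) and at P0 (y axis), 3 libraries each, on log axes after adding 1; the line marks equal levels, grey points are all 21017 genes and colours mark members of 4 lists. Pluripotency and mitosis genes lie below the line with 1 exception each (Klf4 and Cdc25b), Hox genes lie above it from E13.5 means close to 0, and piRNA pathway genes lie on both sides.

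Loss and gain fell on different levels of expression. Among the 797 genes with a mean of at least 10000 normalized counts over the 6 libraries, 5.14% were higher at P0 and 92.7% lower. Among the 4500 genes with a mean under 30, 68.7% were higher and 11.0% lower. With equal library totals the same shares were 27.2% and 62.4% for the most abundant genes and 79.6% and 4.16% for the least abundant. Of the genes tested, 2636 had no more than 3 reads in each E13.5 library and 21 in each P0 library. These could pass the filter only through the other stage, so the shares of low genes describe and do not support. The number of genes with at least 1000 normalized counts in every library was 6629 at E13.5 and 5050 at P0, and the number with at least 10000 was 1216 and 290. Counted as RPM (reads scaled to equal totals, which ignores the size factors), 85 genes reached 1000 in every E13.5 library and 48 in every P0 library, while 12049 and 17328 reached 1 RPM. At 100 RPM the numbers were close, 2390 and 2376, and at 10 RPM they were 8047 and 10402. Reads were found for 22735 ± 50.3 genes per E13.5 library and 34490 ± 333 genes per P0 library (SD, n = 3). The P0 transcriptome was thus spread over more genes, with the 100 most abundant genes of a library holding 17.4% of its reads at E13.5 and 12.8% at P0.

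**Figure D2:**
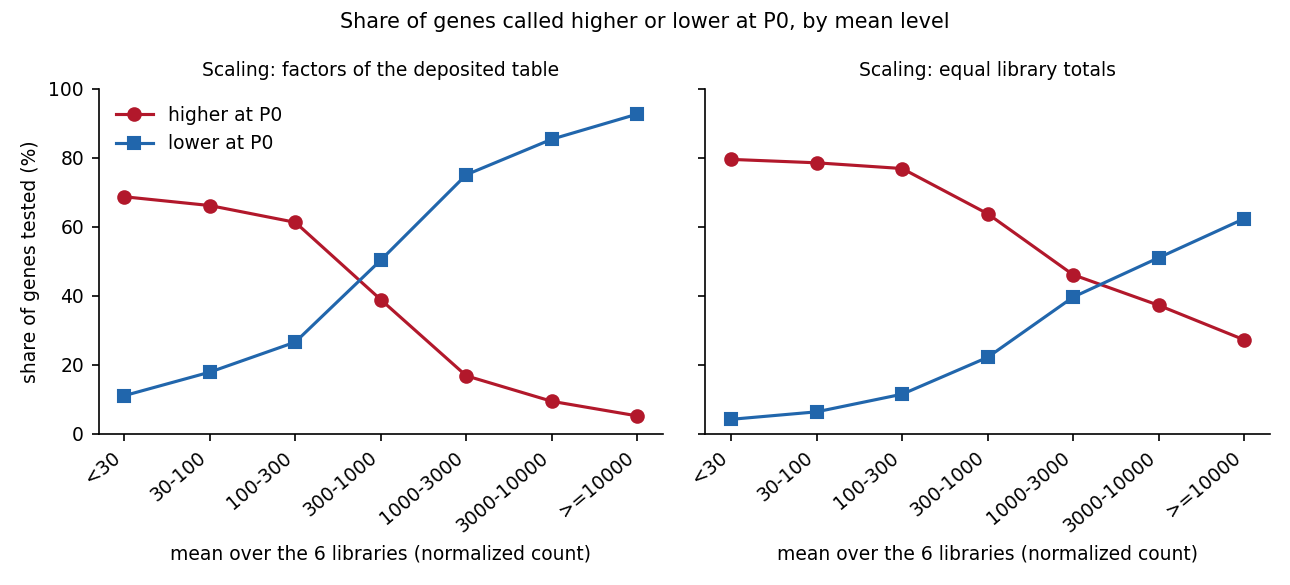
Share of tested genes called higher (red circles) or lower (blue squares) at P0, by mean normalized count over the 6 libraries, with the factors of the deposited table (left) and with equal library totals (right). The share higher falls and the share lower climbs with level in both panels, from 68.7% and 11.0% to 5.14% and 92.7% on the left.

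The classes of transcript differed as well. Over all genes tested, 44.9% were higher and 42.7% lower, 21.7% under all 5 scalings. Of 2279 long noncoding RNA genes tested, 1538 were higher (67.5%) and 305 lower (13.4%) at P0, 145 of the latter under all 5 scalings. Their median log2 fold change was 2.29. They took 0.517% ± 0.00450 of reads at E13.5 and 0.801% ± 0.0350 at P0 (SD, n = 3). Their share higher lay near those of all genes with a mean under 30 (68.7%) and of 30 to 100 (66.2%). Genes near 0 at E13.5 could pass the filter only through P0, so these counts describe and do not support. Of 16563 protein-coding genes, 7276 were higher and 7663 lower (median -0.08), 3940 of the decreases under all 5 scalings. Of 1601 pseudogenes 383 were higher and 876 lower (median -0.99), 440 of the decreases under all 5 scalings. With equal library totals these medians were 1.09 and 0.14, so the direction of the pseudogene median depended on scaling. Among autosomes and the X chromosome the share of tested genes called higher ran from 39.0% on chromosome 8 to 51.4% on chromosome 6, with 49.3% on the X chromosome.

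Outright gain was common and outright loss rare. A gene was counted as gained outright when it had at most 3 reads in each E13.5 library and a mean of at least 100 normalized counts at P0, and as lost outright in the opposite case. By these limits 441 genes were gained, 391 of them protein-coding and 35 long noncoding, and 1 gene was lost, the long noncoding Gm40723 on chromosome 10. Gm40723 held 348.3, 321.0 and 336.5 normalized counts in the E13.5 libraries and 0.522, 1.09 and 0.965 in the P0 libraries. Leaving out P0 library 1 gave 3 genes lost outright, and leaving out P0 library 3 gave 2. Since a P0 library yields more reads per normalized count, a residue is easier to see at P0 than at E13.5.

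The 12 largest decreases, taken among named genes that averaged 100 or more in their higher stage, kept 1 direction under each scaling and whose stages did not overlap, were in Ifitm1, Dppa3, Lefty1, Ifitm3, Gtsf1l, Ctsw, Mup6, Rnf224, Zfp750, Khdc3, Mustn1 and Nanos3. Ifitm1 and Ifitm3 encode interferon-induced membrane proteins that also mark early germ cells. Ifitm1 stood at 15733, 16656 and 18169 normalized counts at E13.5 and was no higher than 34.3 in any P0 library, so its log2 fold change was -9.09 (SE 0.205, adjusted p 6.99e-16). The highest P0 library lay far below the lowest E13.5 library. Ifitm3 went from 7024, 7446 and 7934 to 30.8, 29.9 and 23.2. Dppa3, also called Stella, a maternal and germ cell factor that protects DNA methylation in the zygote, went from 82674, 78046 and 78521 to 151, 195 and 199.8, which is -8.78 on the log2 scale (SE 0.161, adjusted p 2.11e-16). The stages lay 439-fold apart. Part of the 50-base stretches of its transcripts also occur in other genes, so its level is less certain where the counting of reads that match several genes is unknown. Gtsf1l, a relative of the piRNA factor Gtsf1, went from 684, 674 and 697 to 0.522, 7.61 and 5.31, a log2 fold change of -7.30, or -6.54 without P0 library 1. Ctsw, a lysosomal protease, went from 1480.1 ± 83.3 to 10.6 ± 3.82 (SD, n = 3). Lefty1 and Nanos3 are described with their lists. The remaining decreases were -6.98 for Mup6, -6.97 for Rnf224 (-7.59 without P0 library 1), -6.94 for Zfp750, -6.16 for Khdc3 and -6.00 for Mustn1 on the log2 scale, with E13.5 means between 192 (Rnf224) and 1809 (Khdc3) and P0 means between 0.870 (Rnf224) and 24.3 (Khdc3). Khdc3 shares 34.1% of its 50-base stretches with other genes.

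Genes of pluripotency and of primordial germ cells fell almost as a whole. Of 24 genes in the list, all tested, 22 fell, under all 5 scalings, 1 rose and 1 was not called, with a median log2 fold change of -3.39 beside 0.07 over all genes. Over all genes tested, 42.7% fell, 21.7% under all 5 scalings. Their reads made up 0.542% to 0.553% of a library at E13.5 and 0.113% to 0.117% at P0. The core factor Nanog stood at 4006, 3627 and 3214 normalized counts at E13.5 and at 63.7, 64.1 and 60.8 at P0, 57.5-fold lower (log2 fold change -5.82, SE 0.214, adjusted p 1.28e-13). Sox2, a partner of OCT4, went from 4084, 4154 and 4376 to 246, 159 and 189. Pou5f1, which encodes OCT4 itself, went from 13346, 13145 and 13276 to 1105, 1026 and 1027. The stages of all 3 genes lay far apart, but Pou5f1 kept a level above 1000 normalized counts at P0 where Nanog and Sox2 did not.

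Members of the list fell to different degrees. Utf1, a chromatin protein of pluripotent cells, fell from 42814 ± 3355 to 3574 ± 110.3 and Dppa4 from 25360.0 ± 836 to 9852 ± 766 (SD, n = 3), both still abundant at birth; 31.3% of the 50-base stretches of Dppa4 occur in other genes. The regulators that set up the germ line fell by 4.47 (Prdm14), 2.59 (Tfap2c) and 2.46 (Prdm1) on the log2 scale. Prdm14 stood at 3644, 3664 and 3565 at E13.5 and 159.8, 134 and 199 at P0, Tfap2c at 3541, 3307 and 3517 and 571, 540.1 and 609. Sall4, a zinc finger factor that stays active in spermatogonia, had 1 of the 2 smallest decreases, from 12639 ± 94.5 to 4554 ± 75.8. Kit, the receptor of stem cell factor, went from 8113, 7487 and 6229 to 1232, 1403 and 1209.5. L1td1, an RNA-binding protein derived from a LINE-1 transposon, went from 2338 ± 189 to 88.1 ± 16.2. Klf4 was the exception, at 137, 162 and 146 at E13.5 and 590.0, 587 and 530.4 at P0, a rise of 1.93 on the log2 scale (SE 0.121, adjusted p 1.29e-10). Fgf4 was low at both stages (17.3 ± 7.06 and 10.4 ± 4.63) and did not pass the test.

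Nodal signalling, in which a TGF-beta family ligand acts with the co-receptor encoded by Tdgf1 and is held back by the Lefty proteins, fell at the level of ligand, co-receptor and inhibitors. The ligand gene Nodal stood at 4299, 4237 and 4309 normalized counts at E13.5 and at 116, 58.1 and 97.5 at P0, 47.3-fold lower (log2 fold change -5.61, SE 0.255, adjusted p 1.88e-12). Tdgf1 went from 1260.3, 1167 and 1159.9 to 152, 109 and 99.9. The inhibitor and target Lefty1 went from 24378, 26551 and 28328 to 83.0, 61.4 and 72.9, and Lefty2 from 28236, 28478 and 28828 to 605, 700.4 and 617. Their E13.5 levels were above those of the ligand in every library, also per kilobase of exon (means of 15028 for Lefty1, 10921 for Lefty2 and 2044 for Nodal). Lefty1 shares 17.9% of its 50-base stretches with other genes. Foxh1, the DNA-binding partner of the SMAD proteins, went from 4043 ± 107 to 80.7 ± 10.7. In the whole list, 11 of 14 tested genes fell, 8 under all 5 scalings, 1 rose and 2 were not called, with a median of -1.69 (-0.52 with equal library totals). Over all genes tested, 42.7% fell, 21.7% under all 5 scalings. The signal transducers moved less: Smad3 and Smad4 fell by 1.74 and 1.64, whereas the decreases of Smad2, Acvr1b and Acvr2b (-0.82, -0.68 and -0.75) did not hold under all scalings. The call of Acvr1b was also lost without E13.5 library 1 or 4 or P0 library 1 or 3 (-0.71 to -0.50). The receptor gene Acvr1c rose from 2 reads in all E13.5 libraries together to 31.7 ± 6.73 at P0.

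Transcripts of cell division fell together. Of 34 genes of mitosis, 33 fell and 1 rose (median -3.32), 32 of the decreases under all 5 scalings; the decrease that did not hold was that of Pttg1, which had a log2 fold change of -1.07 with the factors of the file and 0.10 with equal library totals (adjusted p 0.324). Over all genes tested, 42.7% fell, 21.7% under all 5 scalings. The mitosis list took 1.04% to 1.06% of reads at E13.5 and 0.233% to 0.269% at P0. Ccnb1 and Ccnb2, the B-type cyclins that drive entry into mitosis, are shown with their kinase Cdk1. Ccnb2 stood at 31246, 31181 and 32009 normalized counts at E13.5 and at 1772, 1481 and 1332 at P0, or -4.37 on the log2 scale (SE 0.0876, adjusted p 3e-16). Ccnb1 went from 84999, 84557 and 81325 to 3618, 3049 and 2719, and 23.4% of its 50-base stretches occur in other genes. Cdk1 went from 11592, 11604 and 11448 to 901, 902 and 588. In all 3 genes each E13.5 library was more than 10 times as high as each P0 library. Birc5, a subunit of the chromosomal passenger complex, had the largest decrease of the list, from 9829, 9822 and 9863 to 355, 285 and 213. Mki67, the proliferation marker Ki-67, went from 1831, 1515 and 1698 to 228, 192 and 190.2. Cdc25b, a phosphatase that activates CDK1, was the member that rose, from 536, 476 and 494 to 2996, 2866 and 2659 (log2 fold change 2.50).

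Every tested gene of DNA replication fell, beside 42.7% of all genes tested. Of 32 genes, 31 were tested and 31 fell (median -2.58), 30 of them under all 5 scalings; Rrm2 is listed at 0 in all 6 libraries, and Pole had -0.93 with the factors of the file and 0.24 with equal library totals. Mcm6, a subunit of the replicative helicase, stood at 69616, 63527 and 67536 normalized counts at E13.5 and at 11081, 10021 and 9378 at P0, or -2.72 on the log2 scale (SE 0.0787, adjusted p 8.02e-15). Mcm2 of the same helicase went from 46008 ± 2315 to 3867 ± 496, and Orc1, which marks origins of replication, from 3998 ± 211 to 297 ± 34.6 (SD, n = 3). The stages did not overlap for any of the 31 genes, beside 89.6% of all genes tested without overlap.

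Because the genes of both lists moved together, the 250 bases before the start of transcription are printed for 1 replication gene and 2 mitosis genes, chosen after their values were seen. They are RefSeq sequences on GRCm38.p6, from the first start listed per gene, read 5′ to 3′ on the strand of the gene. Capitals mark, on either strand, TTTGGCGC or TTTCCCGC (the E2F site), CCAAT (the CCAAT box) and TTTGAA or TTCGAA (the cell cycle homology region, CHR).
Mcm6, chr1:128359706-128359955, minus strand: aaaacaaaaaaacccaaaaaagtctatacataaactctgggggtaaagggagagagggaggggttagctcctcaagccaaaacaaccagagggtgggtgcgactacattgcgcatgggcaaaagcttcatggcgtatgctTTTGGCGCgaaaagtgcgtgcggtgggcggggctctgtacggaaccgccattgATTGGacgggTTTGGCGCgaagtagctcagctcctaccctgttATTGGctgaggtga
Cdk1, chr10:69352913-69353162, minus strand: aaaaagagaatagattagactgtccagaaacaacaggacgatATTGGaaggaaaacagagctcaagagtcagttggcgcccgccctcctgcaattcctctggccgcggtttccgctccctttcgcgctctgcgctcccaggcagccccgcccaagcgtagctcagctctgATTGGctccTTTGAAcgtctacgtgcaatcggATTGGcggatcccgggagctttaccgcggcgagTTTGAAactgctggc
Ccnb2, chr9:70421555-70421804, minus strand: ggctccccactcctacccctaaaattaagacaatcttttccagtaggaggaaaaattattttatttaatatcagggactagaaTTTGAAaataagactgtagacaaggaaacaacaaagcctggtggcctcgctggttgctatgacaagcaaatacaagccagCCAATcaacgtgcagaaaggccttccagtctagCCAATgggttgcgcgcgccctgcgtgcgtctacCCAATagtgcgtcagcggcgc
The Mcm6 window held 2 E2F sites and 2 CCAAT boxes, the Cdk1 window 3 CCAAT boxes and 2 CHR matches, and the Ccnb2 window 3 CCAAT boxes and 1 CHR match, with no overlap between matches. The CCAAT box was thus found in all 3 windows, while the letters of the CHR were not in the Mcm6 window and those of the E2F site not in the Cdk1 and Ccnb2 windows. Among all 27025 windows of this length in the table, 1.35% held an E2F site, 34.5% a CCAAT box and 17.4% a CHR match. A match describes letters and shows no binding.

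Of 23 genes of the cyclin, CDK inhibitor and retinoblastoma list, 16 fell (69.6%), 10 under all 5 scalings, and 6 rose (26.1%). Over all genes tested, 42.7% fell, 21.7% under all 5 scalings, and 44.9% rose. The list median of -1.11 turned to 0.06 with equal library totals. Ccne1, the cyclin of S phase entry, went from 5850.0, 5169 and 5863 to 497, 452 and 455. E2f8, a repressor of the E2F family, went from 990.0 ± 13.7 to 43.2 ± 8.32, and Rbl1, a relative of the retinoblastoma protein, from 1536 ± 117 to 315 ± 37.8 (SD, n = 3). Cyclin D2 moved the other way: Ccnd2 stood at 571, 621 and 644 at E13.5 and at 7604, 6202 and 5396 at P0, a rise of 3.37 on the log2 scale (SE 0.136, adjusted p 4.09e-13). The CDK inhibitors differed among themselves. Cdkn1a, which encodes p21, fell from 1817, 1972 and 2149 to 192, 221 and 209. Cdkn1b, Cdkn1c, Cdkn2a and Cdkn2c rose, by 0.78, 0.86, 0.67 and 1.48 on the log2 scale. The call of Cdkn2a was lost without E13.5 library 1 or 3 or P0 library 3 or 4 (0.55 to 0.61), and that of Cdkn1b without E13.5 library 4 (0.55) or P0 library 3 (0.61). Cdkn1c, which encodes p57, was the most abundant of these 4 at 3498, 3238 and 3353 and 5790.5, 6074 and 6429, also per kilobase of exon (1649 and 2991); 24.9% of its 50-base stretches occur in other genes.

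The abundant transcripts of protein synthesis, respiration and protein breakdown were lower at P0. Over all genes tested, 42.7% fell, 21.7% under all 5 scalings, and among the 797 genes with a mean of at least 10000, 92.7% fell. Of 85 genes of cytosolic ribosomal proteins, 83 fell, 68 under all 5 scalings, and 2 rose, Rpl3l (4.05) and Rpl10l (0.43), both paralogues expressed in restricted tissues (median -2.04). The list took 2.82% to 3.01% of reads at E13.5 and 1.70% to 1.98% at P0. Of 81 tested nuclear genes of oxidative phosphorylation, 76 fell, 53 under all 5 scalings (median -1.75). The 4 that rose were Cox4i2, Cox6a2, Cox7b2 and Cox8c, tissue-specific versions of subunits. Of 37 tested proteasome subunit genes, 33 fell, 25 under all 5 scalings (median -1.70). The 3 that rose were the immunoproteasome subunits Psmb8, Psmb9 and Psmb10, by 7.84, 2.30 and 1.10; Psmb8 had 1 read in all E13.5 libraries together. The 13 protein genes of the mitochondrial genome, and the proteasome genes Psma7 and Psmc5, are listed at 0. The ribosomal and many proteasome transcripts have pseudogene copies, and how the authors counted shared reads is not given in the sources used here.

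The most abundant genes changed in rank. At E13.5 the 5 highest means were those of Atp5b (309580.0), Hsp90ab1 (288764), Hspa8 (253050.0), Ubb (201372) and Cct8 (193052), which serve energy supply, protein folding and protein turnover. At P0 they were those of Eef1a1 (87036), Psmd2 (82541), Ubb (80089), Rpl4 (73739) and Atp5b (65692). All 8 genes were lower at P0 with the factors of the file, but with equal library totals Psmd2 and Rpl4 were higher (0.72 and 0.35) and Eef1a1 was not called. The chaperone gene Hspa8 had the largest decrease of these, from 252275, 247365 and 259510.0 to 28668, 23056 and 23420.4. Of the 50-base stretches of Ubb, Eef1a1 and Hspa8, 48.0%, 40.4% and 39.4% occur in other genes, as do 17.8% for Psmd2 and 15.2% for Rpl4, so the levels and ranks of these genes are less certain.

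Of 21 genes of glycolysis, 12 fell (57.1%), 7 under all 5 scalings, and 8 rose (38.1%) (median -0.82, 0.34 with equal library totals). Over all genes tested, 42.7% fell, 21.7% under all 5 scalings, and 44.9% rose. Ldhb, a subunit of lactate dehydrogenase, went from 67947, 70374 and 76411 normalized counts to 5200.5, 4596 and 3401, whereas its counterpart Ldha went from 3328, 3736 and 3656 to 19896, 17163 and 16627. Both stages stood apart in each gene, with log2 fold changes of -4.04 (SE 0.133, adjusted p 3.39e-14) and 2.32 (SE 0.0808, adjusted p 6.65e-14). Aldoc and Eno2, isozymes best known from neurons, rose by 2.97 and 4.48, and the aldolase and enolase of most tissues, Aldoa and Eno1, had -1.13 and -2.08; with equal library totals the log2 fold change of Aldoa was 0.04 (adjusted p 0.472), so no direction is given for it. Other genes hold 26.0% of the 50-base stretches of Eno1 and a smaller part of those of Ldhb. Of 22 genes listed under cholesterol synthesis, 19 fell, 7 under all 5 scalings, and none rose (median -0.94, 0.23 with equal library totals). Sqle, an enzyme of cholesterol synthesis, went from 20134, 18864 and 18867 to 3884, 3917 and 3527, with no overlap (log2 fold change -2.35, SE 0.0747, adjusted p 2.21e-14).

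Of 14 tested genes of the BCL2 family, which control cell death at the mitochondrion, 9 fell (64.3%), 7 under all 5 scalings, and 4 rose (28.6%). The median was -1.48, or -0.32 with equal library totals. Over all genes tested, 42.7% fell, 21.7% under all 5 scalings, and 44.9% rose. The executioner gene Bax went from 12294, 12418 and 13207 to 1670.3, 1684 and 1887. The death-promoting Pmaip1 and the survival gene Mcl1 fell as well, by 2.68 and 2.59. Bcl2 and Hrk rose by 2.06 and 6.11, the latter by 5.35 without E13.5 library 1 and by 6.79 without E13.5 library 4. Genes that promote death and genes that oppose it were found among both the losses and the gains.

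With the factors of the file most chromatin regulators in the lists were lower. Over all genes tested, 42.7% were lower, and 21.7% under all 5 scalings. Among all genes with a mean of 1000 to 3000 normalized counts over the 6 libraries, 75.1% were lower. Of 20 genes of H3K9 methylation and of HP1 proteins, which read this repressive mark, 17 fell, 12 under all 5 scalings, and 3 rose (median -1.50). The HP1 gene Cbx1 went from 6238, 6145 and 5927 normalized counts to 287, 263 and 269, the largest decrease of the list (log2 fold change -4.48, SE 0.107, adjusted p 1.31e-15). The methyltransferase gene Suv39h1 went from 5757 ± 109 to 727 ± 67.9 and Trim28, the corepressor recruited by zinc finger proteins, from 26512 ± 849 to 6658 ± 231 (SD, n = 3). Ehmt2, which encodes the methyltransferase G9a, rose from 7879.8, 7829 and 7783 to 15883, 15858 and 16659.8, together with the demethylase genes Kdm4a (1.29) and Kdm3a (0.63). Of 26 Polycomb genes, 19 fell, 11 under all 5 scalings, and 5 rose (median -0.99, 0.18 with equal library totals). Ezh2, the H3K27 methyltransferase, went from 6980.1 ± 211 to 1763 ± 157, and its partner Mtf2 from 18417 ± 247 to 2688 ± 228. Cbx8 of Polycomb complex 1 rose from 375, 363 and 354 to 1959.6, 1609 and 1826. Of 350 tested zinc finger genes with names in Zfp, 245 fell, 104 under all 5 scalings, and 56 rose (median -1.02, 0.15 with equal library totals).

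**Figure D3:**
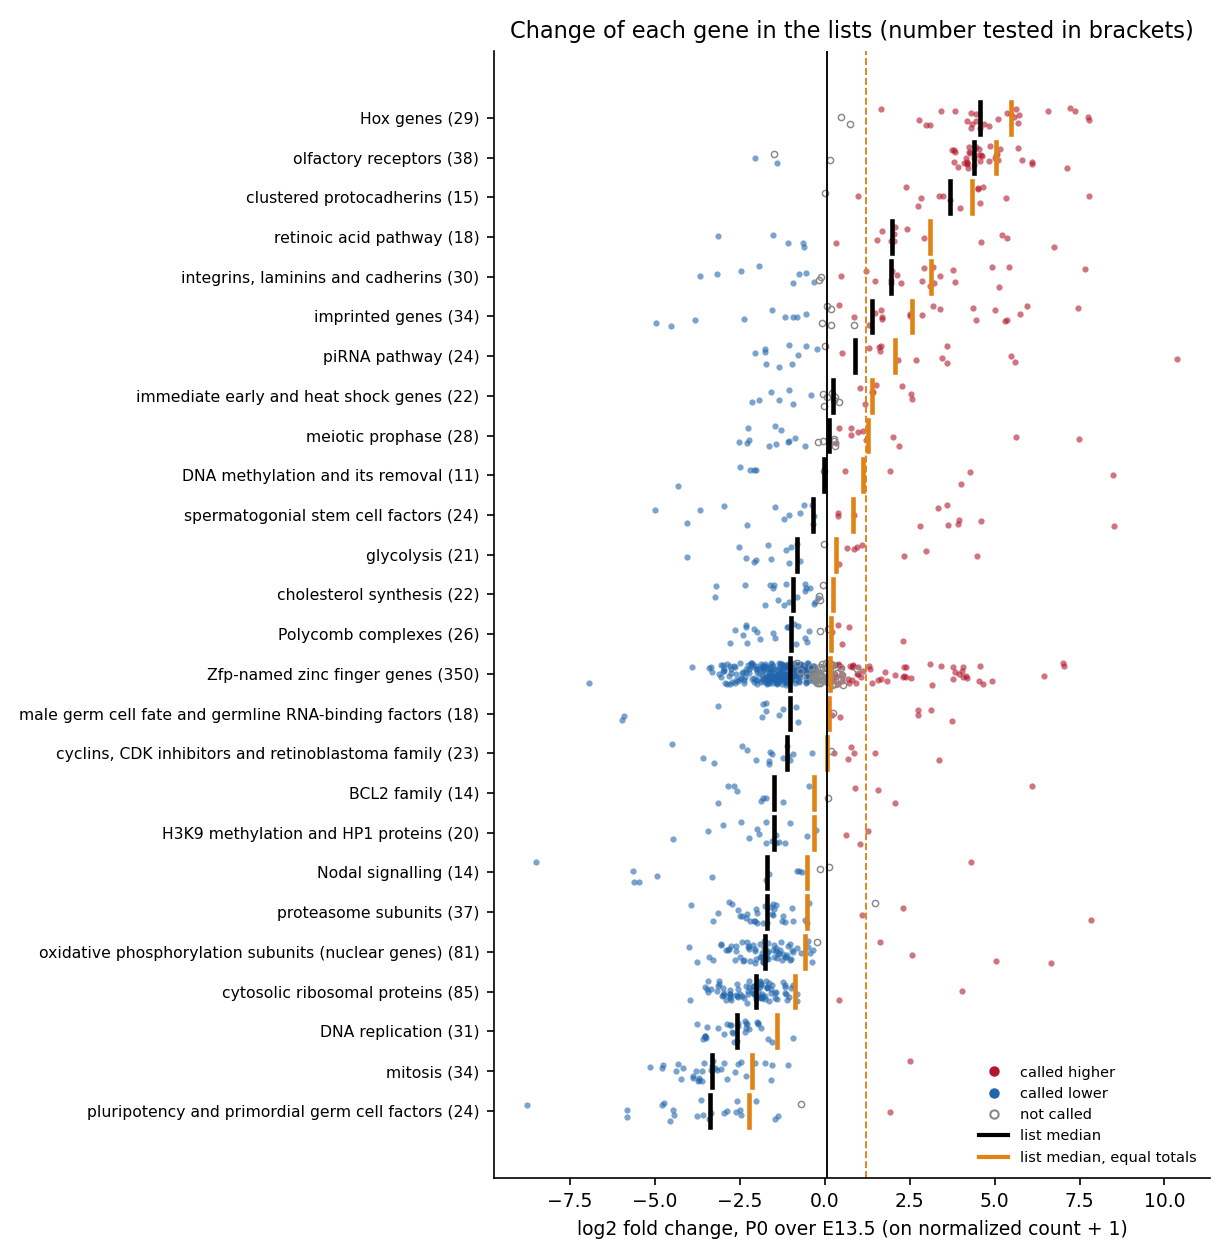
Log2 fold change of P0 over E13.5 for each tested gene of each list, lists sorted by median; red and blue points passed the test, open grey points did not, black bars are list medians, orange bars list medians with equal library totals, and the vertical lines are the medians of all genes under both scalings (0.07 and 1.22). The medians from pluripotency to ribosomal proteins lie left of both lines, and those of Hox genes, olfactory receptors and protocadherins lie right of both.

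Of 11 genes of DNA methylation and its removal, 5 rose (45.5%), 5 fell (45.5%), the latter under all 5 scalings, and Tet2 was not called; over all genes tested, 44.9% rose and 42.7% fell. Dnmt3l, the cofactor needed for new methylation in germ cells, stood at 23.2, 17.4 and 12.6 normalized counts at E13.5 and at 7139, 6195 and 6521 at P0, 373-fold higher (log2 fold change 8.50, SE 0.150, adjusted p 1.74e-16). The E13.5 libraries all lay under 25 and every P0 library lay above 1000. The de novo methyltransferase Dnmt3a went from 5427, 5169.9 and 5165 to 20178, 19491 and 19709, and Dnmt3c, a rodent enzyme that methylates young transposons, from 48.6, 18.5 and 45.2 to 613, 550.5 and 556; 23.6% of the 50-base stretches of Dnmt3c occur in other genes. Dnmt3b rose less, from 305, 194 and 317 to 469.9, 381 and 372, a log2 fold change of 0.61 that was 0.38 without E13.5 library 3. Dnmt1, the maintenance enzyme, fell from 12869.5, 11467 and 11913 to 3020.0, 2734 and 2800.4, and Uhrf1, which guides it to replicated DNA, from 7929, 7142 and 7972 to 1603, 1329 and 1196. Among the TET enzymes, which oxidise 5-methylcytosine, Tet1 fell from 5871, 5911 and 6137 to 263, 328 and 309.9 while Tet3 rose from 36.9, 21.8 and 41.0 to 634, 590.1 and 689.7. At E13.5 Tet1 was the higher of the pair in each library and at P0 Tet3 was, both on the scale of normalized counts; per kilobase of exon the means were 386 (Tet1) and 1.99 (Tet3) at E13.5 and 19.4 and 38.2 at P0.

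Of 24 genes of the piRNA pathway, 13 rose (54.2%), 10 fell (41.7%), 5 of them under all 5 scalings, and Tdrd7 was not called (median 0.89). These shares lay near the 44.9% and 42.7% over all genes tested. The list took 0.664% to 0.694% of reads at E13.5 and 1.08% to 1.10% at P0. Spocd1 (ENSMUSG00000028784, chromosome 4 from 129929249 to 129957115 on GRCm38), which links nuclear piRNAs to DNA methylation, stood at 21.1, 7.62 and 6.31 normalized counts at E13.5 and at 15212, 14829.5 and 14519 at P0. Its change, 10.38 on the log2 scale (SE 0.266, adjusted p 2.52e-15), was the largest of the list, and the lowest P0 library was over 600 times as high as the highest E13.5 library. Piwil4, the nuclear PIWI protein MIWI2, went from 593, 456 and 492 to 6055, 5623 and 5126, and Tdrd9, a helicase that acts with it, from 252, 233 and 239.8 to 11985, 11533 and 11466. Tex15, a further nuclear effector, went from 1137, 1023 and 1083 to 6999, 7011 and 6862. Piwil2, the PIWI protein of the fetal cytoplasm, rose less, from 9208, 8077 and 7415 to 19944, 21542 and 18734. Tdrd1 and Mael, of the cytoplasmic granules in which piRNAs are made, rose by 1.60 and 1.65. Gtsf1 and Henmt1, which act in PIWI slicing and in the end modification of piRNAs, rose by 3.59 and 3.61, and Tdrd6, best known from later stages, by 5.49 (4.88 without E13.5 library 1). The decreases that held under all scalings were in Hsp90aa1, Tdrkh, Tdrd12, Tdrd5 and Ddx4, between -1.35 (Ddx4) and -2.06 (Hsp90aa1). Tdrkh and Hsp90aa1 share 34.7% and 47.5% of their 50-base stretches with other genes. The decreases of Mov10l1, Pld6, Asz1, Pnldc1 and Exd1 did not hold: Mov10l1 had -0.57 with the factors of the file and 0.60 with equal library totals. The call of Exd1 was also lost without E13.5 library 1 or 3 or P0 library 3 or 4 (-0.23 to -0.19).

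Of 18 genes of male germ cell fate and germline RNA-binding proteins, 11 fell (61.1%), 7 under all 5 scalings, and 6 rose (33.3%), with 1 not called (median -1.03, 0.13 with equal library totals). Over all genes tested, 42.7% fell, 21.7% under all 5 scalings, and 44.9% rose. Nanos3, an RNA-binding protein that keeps early germ cells alive, stood at 2097, 1996 and 2144 normalized counts at E13.5 and at 38.1, 20.1 and 43.9 at P0. Nanos2, which sets the male fate, stood at 655 ± 23.5 and 10.2 ± 3.36 (SD, n = 3); 47.4% of its 50-base stretches lie in other genes, and 49.0% of its exon bases overlap other genes. Their partner Dnd1 went from 31864, 34612 and 36638 to 4313, 3545 and 3819. All 3 fell without overlap, Nanos3 by 5.96, Nanos2 by 5.92 and Dnd1 by 3.14 on the log2 scale. The genes that rose included the X-linked Magea10 (68.6, 43.5 and 71.5 to 867, 793 and 767) and Rhox13 (134, 194 and 204 to 1378, 1498 and 1696) and the germ cell surface protein gene Tex101 (1127 ± 51.6 to 7505 ± 340.4; SD, n = 3).

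Of 24 genes of spermatogonial stem cells, 11 rose (45.8%) and 13 fell (54.2%), 5 of them under all 5 scalings, beside 44.9% and 42.7% of all genes tested (median -0.34, 0.83 with equal library totals). Sohlh1, a transcription factor of differentiating spermatogonia, stood at 23.2, 23.9 and 9.46 normalized counts at E13.5 and at 6897, 6418 and 7126 at P0, or 8.52 on the log2 scale (SE 0.226, adjusted p 3.36e-15). Its partner Sohlh2 moved the other way, from 17326, 16719.6 and 16834 to 2069.8, 2301 and 2199. The E13.5 libraries were under 25 for Sohlh1 and above 16000 for Sohlh2. Gfra1, the GDNF receptor of stem cells, went from 21.1, 30.5 and 17.9 to 598, 611 and 516, and the stem cell transcription factor Zbtb16 from 26.6 ± 13.1 to 178 ± 40.7 (SD, n = 3). Foxc2 rose from 7.07 ± 5.95 to 80.9 ± 14.0 (SD, n = 3). Lhx1 and Etv5, targets of GDNF signalling in stem cells, fell from 3873, 3593 and 3634 to 133, 112 and 100.4 and from 22159.6, 20744 and 19965 to 1206, 1361 and 1205; 24.5% of the 50-base stretches of Etv5 occur in other genes. Ret, the signalling partner of GFRA1, had -0.36 with the factors of the file and 0.80 with equal library totals, so no direction is given for it.

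**Figure D4:**
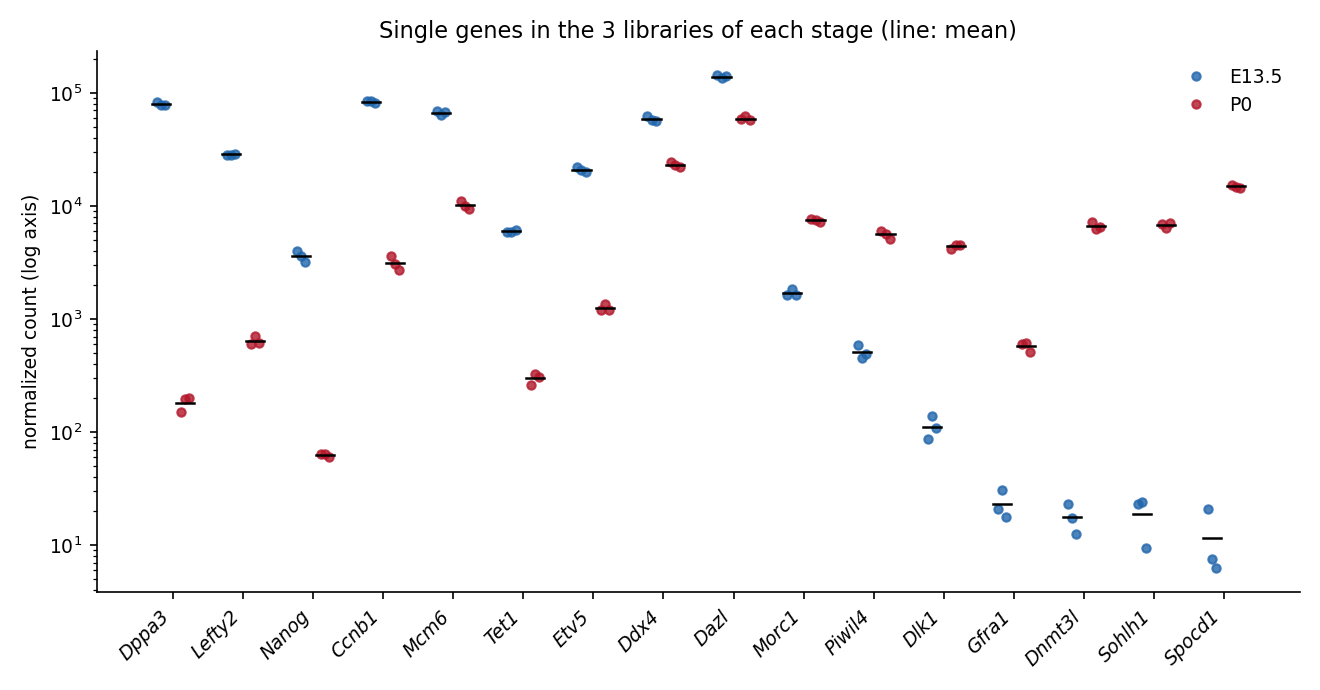
Normalized counts of 16 genes in the 3 libraries of E13.5 (blue) and of P0 (red), on a log axis; points are libraries and lines are means. The stages do not overlap for any of the 16 genes, as for 89.6% of all genes tested, and the germ cell genes Ddx4 and Dazl move least.

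Of 28 tested genes of meiotic prophase, 11 rose (39.3%), 12 fell (42.9%), 5 of these under all scalings, and 5 were not called (median 0.11), shares near those over all genes (44.9% and 42.7%). Mei1, needed for meiotic DNA breaks, went from 4.22, 0 and 7.36 normalized counts to 659, 619 and 608, a log2 fold change of 7.48 that was 6.57 without E13.5 library 3 and 8.10 without E13.5 library 4. Rad21l, a meiotic cohesin subunit, went from 2.49 ± 0.668 to 171 ± 13.7 (SD, n = 3). Spo11, the enzyme that makes the breaks, went from 321, 194 and 284 to 1311, 1067 and 1171. Stra8, the gene of meiotic entry induced by retinoic acid, rose from 154, 106 and 115 to 328, 267 and 276 (log2 fold change 1.23, SE 0.137, adjusted p 2.45e-07). The central element gene Syce2 and Hormad2, of the chromosome axis, fell by 2.26 and 2.52.

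In the retinoic acid pathway, 13 of 18 genes rose (72.2%) and 5 fell (27.8%), 2 under all 5 scalings, beside 44.9% and 42.7% of all genes (median 1.99). The synthesis enzyme gene Aldh1a2 went from 1447, 1416 and 1408 to 6342, 5729 and 5654. Aldh1a1 went from 1057, 969.6 and 705 to 4637, 3202 and 1621, and its P0 libraries spread over a wider range than those of Aldh1a2. The P0 order of Aldh1a1, highest in library 1 and lowest in library 4, was also the order of the Sertoli cell markers described below, and their part in the result was not tested. The receptor gene Rarb, itself a retinoic acid target, stood at 0, 2.18 and 3.15 at E13.5 and at 227, 258 and 281 at P0 (log2 fold change 6.76, 6.14 without E13.5 library 1); 34.1% of its 50-base stretches occur in other genes. The receptor genes Rara and Rxrb fell, from 2473 ± 43.0 to 858 ± 136 and from 9154 ± 450.4 to 1045 ± 78.2 (SD, n = 3). Of the degrading enzymes, Cyp26b1 rose but was low at both stages (14.6 ± 11.1 and 47.9 ± 18.9, SD, n = 3), and its log2 fold change of 2.03 was 1.09 without E13.5 library 4. Cyp26a1 had no read at E13.5 and stood at 52.2, 37.5 and 32.8 at P0, at least 12.5-fold higher than the floor of 3 reads per library.

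Among the 12 largest increases by the same rule were those of Myh2, Spocd1, Ablim3, Myh1, Syt3, Cidea, Tpsb2, Krt4, Avil, Deup1 and Lsamp. Apart from Spocd1, these genes are best known from other tissues: Myh1 and Myh2 encode myosin heavy chains of skeletal muscle, Syt3 a synaptotagmin, Cidea a protein of lipid droplets, Tpsb2 a mast cell protease, Krt4 a keratin of epithelia, Avil an actin-binding protein of sensory neurons, Deup1 a centriole factor of ciliated cells and Lsamp a neuronal surface protein. Myh2 had no read in any E13.5 library and stood at 1914, 1746 and 1732 normalized counts at P0, at least 551-fold higher. Cidea, also without an E13.5 read, stood at 977, 934 and 970.1 at P0, at least 294-fold higher. The 3 P0 libraries of these genes lay close to each other. Krt4 and Lsamp also had no E13.5 read and reached 906 ± 70.5 and 777 ± 89.8 (SD, n = 3). Syt3, Ablim3 and Deup1 had 2 reads each over the E13.5 libraries together, and the ratios of means were 2275 (interval 643 to 19197), 2395 (interval 654 to 19522) and 1719.7 (interval 471 to 14071), where the exact 95% intervals cover counting error only. Tpsb2 stood apart from the others at 1296, 939 and 655 at P0, a wider spread than in the other genes named here. Its log2 fold change was 9.86 (SE 1.23, adjusted p 9.41e-07). This SE comes from the fit over all 12 libraries, including E16.5 and P3, and does not measure the P0 spread alone. Myh1 and Myh2 share 30.5% and 24.6% of their 50-base stretches with other genes.

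Developmental and surface gene families that were near 0 at E13.5 were detected at birth. Of 39 Hox genes, which pattern the body axis, 29 passed the filter on low values; 27 of these were called higher and none lower. A gene near 0 at E13.5 could pass the filter only through P0, so these counts and those of the families below describe and do not support. Over all genes tested, 44.9% were called higher and 42.7% lower. The Hox list took 0.0003% to 0.0004% of reads at E13.5 and 0.0112% to 0.0126% at P0, and its median log2 fold change was 4.56, or 3.98 with the 12 genes without an E13.5 read set at their lower bound. Hoxc8 had 2 reads over the E13.5 libraries and stood at 331, 305 and 320.0 normalized counts at P0. Hoxc9 stood at 238, 171 and 236 and Hoxa4 at 163, 181 and 153 at P0, both without a read at E13.5. Hoxa10, at 79.2, 60.9 and 83.1 and 137, 97.3 and 81.1, was not called with the factors of the file and was called higher with equal library totals (1.63). Of 57 clustered protocadherins, surface proteins best known from neurons, 15 passed the filter and 14 were called higher (median 3.70, 3.35 with 3 genes at their bound). Of 1093 olfactory receptor genes, 38 passed and 34 were called higher (median 4.40, 2.89 with 27 genes at their bound). Their levels stayed low: the olfactory receptors together took 0.0118% to 0.0136% of reads at P0.

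Of 30 integrin, laminin and cadherin genes, which serve cell adhesion, 20 rose (66.7%) and 8 fell (26.7%), 4 under all 5 scalings, beside 44.9% and 42.7% of all genes (median 1.95). Cdh1, the E-cadherin of epithelia and early germ cells, fell from 8828, 7475 and 7941 normalized counts to 629.7, 622 and 627. The integrin genes Itga7 and Itgb4 rose from 6.33, 0 and 0 to 419, 394 and 363 (log2 fold change 7.66, 8.62 without E13.5 library 1) and from 29.6, 13.1 and 14.7 to 697, 612 and 668, and the laminin gene Lama4 from 79.2, 66.4 and 64.1 to 1055, 929 and 908. Of 34 tested imprinted genes, 20 rose (58.8%) and 9 fell (26.5%), 4 under all 5 scalings (median 1.40). Members of the Dlk1 cluster rose on both sides of the imprint: the paternally expressed Dlk1 went from 87.6, 138 and 109 to 4131, 4526 and 4518 and the maternally expressed Meg3 from 13.7, 19.6 and 8.41 to 759, 698 and 830.2. Grb10 went from 65.4, 62.0 and 35.8 to 3252, 3569.6 and 3221. Snrpn and the zinc finger gene Peg3 fell from 8570.2, 8396 and 8559 to 417, 392 and 305 and from 8047, 7354 and 7514 to 538, 528 and 567; Snrpn overlaps other genes over 34.1% of its exon bases.

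Markers of other testicular and blood cells took more reads at P0. A marker near 0 at E13.5 could pass the filter on low values only through P0, so the counts of markers that rose describe and do not support. Over all genes tested, 44.9% rose and 42.7% fell, 21.7% under all 5 scalings. Of 11 tested Sertoli cell markers 10 rose and none fell, and the list took 0.0111% to 0.0148% of reads at E13.5 and 0.105% to 0.195% at P0. Inha, which encodes a subunit of inhibin, stood at 649, 545 and 477 normalized counts at E13.5 and at 15802, 15122 and 8256 at P0, and Sox9, the transcription factor that defines Sertoli cells, at 573, 432 and 333 and 1988, 1987 and 1278. Clu, an abundant secreted protein of Sertoli cells, stood at 3113, 2599 and 2459 and 21419.6, 17620.4 and 10544. In all 3 genes P0 library 4 was the lowest of its stage. All 11 tested peritubular and interstitial markers rose, from 0.0007% to 0.0008% of reads to 0.0311% to 0.0325%. The 9 tested mast cell markers, 8 of them at no more than 3 reads in every E13.5 library, were all called higher, and the list took 0.0001% to 0.0002% of reads at E13.5 and 0.0083% to 0.0153% at P0; the defining proteases Cma1, Cpa3 and Mcpt2 were at 0 in every E13.5 library and at 579.6, 479.8 and 278, 627, 439 and 188 and 352, 269.5 and 228 at P0. Endothelial markers rose in 7 of 8 genes and fell in 1: Tie1 had no read at E13.5 and stood at 749.8, 627 and 700.3 at P0, while Pecam1, also expressed by early germ cells, fell from 5074, 4453 and 4326 to 544, 475 and 526. Of 9 tested macrophage and leukocyte markers 5 rose (55.6%) and none fell, with 0.0001% to 0.0003% of reads at E13.5 and 0.0024% to 0.0036% at P0. Of 7 tested Leydig cell markers 4 rose (57.1%) and 1 fell, a decrease that did not hold under all 5 scalings. They took 0.0098% to 0.0107% of reads at E13.5 and 0.0177% to 0.0392% at P0. All 7 tested red blood cell markers rose, with 0.0001% to 0.0009% of reads at E13.5 and 0.0072% to 0.0107% at P0. These shares of reads treat the library totals as equal. With the factors of the file, the summed normalized counts of the endothelial markers were lower at P0 (4538 to 5304 at E13.5, 3235 to 3629 at P0). Those of the Leydig cell markers overlapped (5194 to 5762 and 4074 to 9740). Those of the remaining lists of other cell types were higher in each P0 library. The germ cell markers took 0.640% to 0.651% of reads at E13.5 and 0.579% to 0.613% at P0. Of these 10 genes 3 were higher and 7 lower, 6 of the latter under all 5 scalings. The part of these cells in the increases named above, among them Tpsb2, the retinoic acid, adhesion and Hox genes, was not tested.

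**Figure D5:**
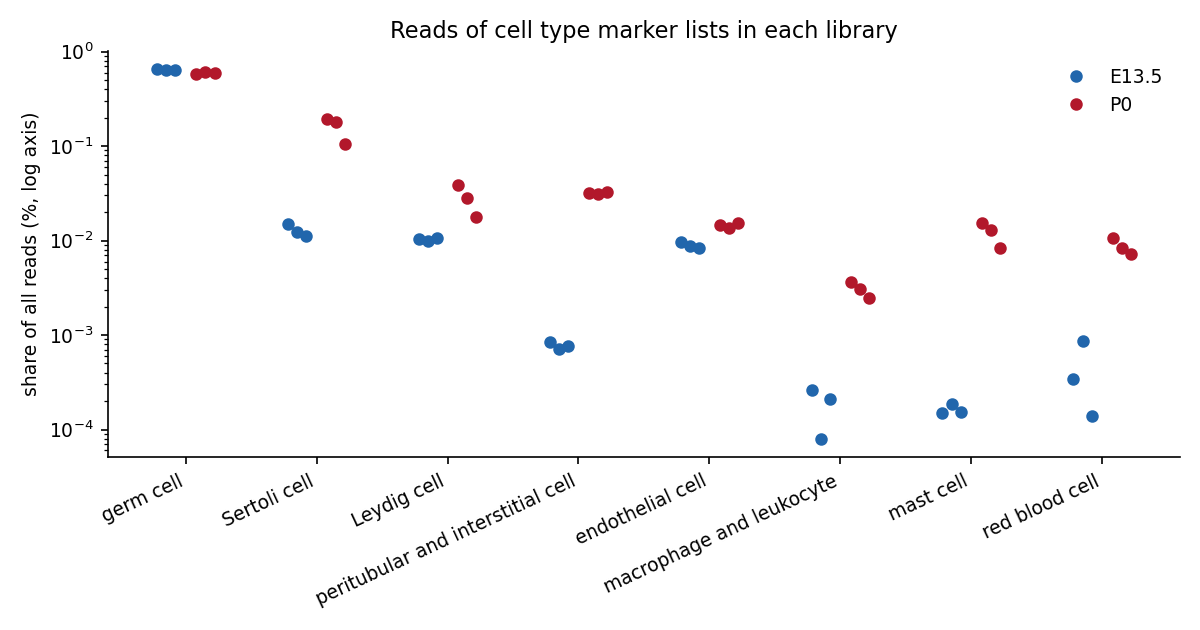
Share of all reads taken by each cell type marker list in each library of E13.5 (blue) and P0 (red), in percent on a log axis; points are libraries. The shares of all 7 other cell types are higher in each P0 library than in each E13.5 library. With the factors of the file this does not hold for endothelial and Leydig cell markers. P0 library 4 has the lowest share of its stage for Sertoli, Leydig, macrophage, mast and red blood cell markers.

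Of 22 stress and immediate early genes, which can respond to the handling of cells, 8 rose (36.4%), 7 fell (31.8%), 3 of these under all scalings, and 7 were not called (median 0.23). Over all genes tested, 44.9% rose and 42.7% fell. Fos stood at 8133, 7737 and 8499 normalized counts at E13.5 and 10544, 9929 and 5864 at P0, overlapping between the stages; with equal library totals its log2 fold change was 1.24 (adjusted p 1.82e-05). Jun rose from 1169, 1082 and 1054 to 3878, 3035 and 2219.7, with P0 library 4 the lowest.

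The levels at E16.5 and P3 were set beside these values, with the reservation that both stages carry another genotype tag. Of the 8328 genes at least 2-fold higher at P0, the E16.5 mean lay between the E13.5 and P0 means for 6213 (7464 with equal library totals) and above both for 1798 (718). Of the 6558 genes at least 2-fold lower at P0 the E16.5 mean lay between for 4833 with the factors of the file and for 1960 with equal library totals, so the course of the losses depended on scaling. For 20 of 24 piRNA pathway genes (83.3%) the E16.5 mean was above both, under either scaling, beside 22.2% of all genes tested (16.2% with equal library totals). Piwil4 averaged 32924 at E16.5 beside 514 at E13.5 and 5601 at P0. Dnmt3l, of the methylation list, averaged 20342 beside 17.8 and 6619. The P0 means of Piwil4 and Dnmt3l thus lay below those of E16.5 and above those of E13.5. The P3 mean was at least 2 times the P0 mean for 32 of 34 mitosis genes (26 with equal library totals) and 29 of 31 replication genes (26). Of all genes at least 2-fold lower at P0, 59.3% had such a P3 mean (19.8% with equal library totals). Ccnb1 averaged 41401 at P3 and Mcm6 46115, beside 3129 and 10160.2 at P0. Among the pluripotency genes the P3 mean was at least 2 times the P0 mean for 4 of 24 and at most 0.5 times for 10; of all genes at least 2-fold lower at P0, 4.47% were at most 0.5 times.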

How the data were processed

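RNA of germ cells was amplified with SMART-seq v4 and sequenced, per the labels' protocols. Per the submitters' processing notes, the tools included bcl2fastq 2.20, cutadapt 1.18, HISAT2 2.1.0, featureCounts 1.5.2 and DESeq2 1.26.0, on mm10 (GRCm38); the annotation release, the strand setting and the treatment of reads that match several genes are not given in the sources used here. The deposited values are a signal per gene, namely the authors' counts divided by 1 size factor per library. Dividing each column by its smallest step recovered whole reads for 100% of values (tolerance 0.001).

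The members and gene lists were chosen with earlier results of these data known. Genes with a value of at least 10 in at least 3 of the 6 libraries were tested with limma 3.58.1 (R 4.3.3) on log2(normalized count + 1), in a fit over all 12 libraries of 4 stages with a trended variance prior (8 residual degrees of freedom), with Benjamini-Hochberg adjustment over 21017 genes and a threshold of 0.05; adjusted p-values in the text are from this test unless another scaling is named. With 3 libraries against 3, a permutation test of a single gene cannot give p below 0.1. Genes named are Morc1, the 12 largest changes each way by the rule given in the text, the 5 highest means per stage, and members of the lists with the largest changes or a defining role. Some of these genes are not reported here. The floor of a fold against 0 is 3 reads per library, and intervals and floors cover counting error only. Ensembl identifiers were matched to symbols for 55227 of 55487 genes (99.5%) through GENCODE M21, from whose transcripts the share of 50-base stretches found in other genes and the overlap of exons were computed. The 250-base windows matched 77.7% of the protein-coding genes tested, 27 of 34 mitosis genes (79.4%) and 25 of 32 replication genes (78.1%), so a comparison of motifs between lists was void and is not given. On data simulated for this comparison, with 16376 genes tested and 200 changed, limma recovered 98 of 100 genes changed 2-fold and 100 of 100 changed 4-fold, with 11 false calls. All other genes were set equal between the stages, the changed genes had an E13.5 mean of at least 100, and the size factors were known. The simulation therefore cannot speak to the choice of scaling or to genes near 0. Alternatives were TMM, median-of-ratios, poscounts and equal-total scaling, other pseudocounts and filters, a fit of the 6 libraries, edgeR 4.0.16 and DESeq2 1.42.0 on the recovered reads, a block on the number in the column heads, and leaving out each library.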

Additional observations from a re-analysis of the deposited data

How the results depend on the processing

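The counts of genes called and of genes changed at least 2-fold stayed within 1.5 times their values under each scaling, both pseudocounts, the 6-library fit, edgeR, DESeq2 and each left-out library (18005 to 18124 called and 14734 to 14834 changed 2-fold without 1 library). edgeR called 18455 genes and DESeq2 18411, and 18336 and 18290 of these were called in the same direction by limma. A filter on a mean of at least 100 left 13104 genes, of which 11953 were called and 8696 changed 2-fold; it lowered the share of called genes that were higher from 51.3% to 34.2% and gave medians of -0.72 over all genes and -0.40 for meiotic prophase. That share was 54.5% with TMM, 59.7% with median-of-ratios and 74.8% with equal library totals, 63.4% without a filter, 53.0% with the filter over 12 libraries, 51.0% with poscounts factors, which were added after seeing the data, and 51.0% to 51.6% without 1 library. Genes gained outright numbered 218 at a floor of 0 reads, 993 at a floor of 10 reads, 934 at a mean of at least 50 and 40 at a mean of at least 500, and genes lost outright 0, 8, 2 and 0; without 1 library they were 440 to 544 and 1 to 3. With equal library totals the medians turned positive for cyclins and CDK inhibitors (0.057), DNA methylation (1.14), Polycomb (0.18), male germ cell fate (0.13), spermatogonial stem cells (0.83), glycolysis (0.34), cholesterol synthesis (0.23) and Zfp genes (0.15), as did the values of Eef1a1 (0.11), Psmd2 (0.72), Rpl4 (0.35), Acvr1b (0.47), Acvr2b (0.42), Smad2 (0.35), Pttg1 (0.10), Pole (0.24), Tet2 (1.14), Mov10l1 (0.60), Pld6 (0.19), Asz1 (0.39), Pnldc1 (0.13), Exd1 (0.95), Ret (0.80) and Aldoa (0.041). Median-of-ratios factors turned the medians of DNA methylation (0.45) and spermatogonial stem cells (0.14) and the values of Psmd2 (0.030), Exd1 (0.26) and Ret (0.11). The DNA methylation median, close to 0, was also 0.18 with TMM, 0.0079 with both edgeR and DESeq2, and between -0.22 (without P0 library 3) and 0.19 (without P0 library 1) without 1 library. Equal totals multiply all P0 values relative to E13.5 by the same factor, which accounts for the common shift; whether equal totals or the factors of the file are nearer to RNA per cell was not tested. The column heads number the libraries 1, 3 and 4 in each stage, whereas the titles number the replicates 1 to 3, and nothing ties the numbers to an animal or day. Deviations from the stage means of libraries with the same number correlated at 0.034, -0.0034 and 0.048 over 21017 genes, and not every library correlated best with its own number. A replicate block on these numbers, added after seeing the data, gave 18375 genes called, 14889 changed 2-fold and 51.3% higher, and changed no call of a gene named here. Depth limits the outright counts: 3 reads correspond to at most 3.26 normalized counts at E13.5 and 1.63 at P0.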
